A study of Mus musculus with 6 samples.

Results

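Major urinary protein genes were followed through RNA sequencing of 3 cell populations sorted from MMTV-PyMT mammary tumors of FVBN mice. Their members here are *Mup2*, *Mup15* and *Gm2083*, which are 3 of the 14888 genes analysed. They were chosen from their RPKM in these same libraries and located by symbol, so their levels are given as a description and no test of them is made. The populations were CD29 hi CD61+ breast cancer stem cells (BCSCs, P1), ALDH+ BCSCs (P2) and bulk cells (P0), which the labels call non-CSC and which are what was left after the other sorts. Both tumors gave all 3 populations, which makes 6 libraries with 2 per population, paired by the tumor number. All 6 carry the Polyoma Virus Middle-T Antigen, which the MMTV promoter drives in mammary epithelium, and none was treated. The labels give no age and do not say whether both tumors grew in 1 mouse, so the spread between libraries covers these 2 tumors only.

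Major urinary proteins are small secreted lipocalins, beta-barrel proteins with a pocket that holds volatile pheromones. In mice they are made mainly in the liver, under growth hormone, androgen, glucocorticoid and thyroid hormone, and leave the body in urine. Members of the family are also known from salivary, lacrimal and mammary glands. The genes lie side by side as many recent copies on chromosome 4, so that a short read from one copy can match others equally well. *Gm2083* is a predicted gene model, and RefSeq gives this symbol as an older name of *Mup13*, under another identifier than that of the table.

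The coding sequences are shown first because the values of these genes turn on how alike they are. In GENCODE M21 (GRCm38), 22 *Mup* genes lay on chromosome 4 between 59956804 and 62150863. *Mup2* is at chr4:60135932-60154289 and *Mup15* at chr4:61435790-61439743, both on the minus strand, and each coding sequence has 540 bases. Between *Mup2* and *Mup15* these differed by 2 substitutions, C13T in exon 1 and G472A in exon 5, counted from the first coding base with the *Mup2* base first. The identifier of *Gm2083* matched no entry of the reference tables, so no position or sequence is given for it. The 90 bases below are the coding stretch from base 97 of *Mup2*, all within exon 2, chosen as the stretch in which *Mup4* differed most from *Mup2*. Capitals mark bases that differ from *Mup2*, and every line reads 5′ to 3′ on the minus strand.
Mup2 (chr4:60139263-60139352): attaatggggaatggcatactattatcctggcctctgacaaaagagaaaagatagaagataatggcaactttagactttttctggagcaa
Mup15 (chr4:61439109-61439198): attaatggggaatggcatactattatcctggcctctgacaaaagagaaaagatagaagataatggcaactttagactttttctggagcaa
Mup1 (chr4:60501326-60501415): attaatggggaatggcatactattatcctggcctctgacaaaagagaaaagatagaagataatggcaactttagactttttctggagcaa
Mup5 (chr4:61834599-61834688): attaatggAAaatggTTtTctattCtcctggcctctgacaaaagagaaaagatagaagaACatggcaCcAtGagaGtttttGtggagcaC
Mup4 (chr4:59960083-59960172): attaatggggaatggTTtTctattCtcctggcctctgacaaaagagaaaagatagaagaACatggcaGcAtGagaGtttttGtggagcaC
*Mup2*, *Mup15* and *Mup1* were the same in every base of this stretch, while *Mup5* differed from *Mup2* at 14 bases and *Mup4* at 12.

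Reads of the 3 members were found in P1 cells and were not detected in P2 or P0 cells. The values are RPKM, in which a gene's reads are divided by its length in kilobases and by the size of the library. *Mup2* was at 13.9 RPKM in P1 of tumor 1 and at 0.901 RPKM in P1 of tumor 2, and was listed at 0 in both P2 and both P0 libraries. *Mup15* was at 21.1 and 1.09 RPKM in P1 of tumors 1 and 2, and at 0 in the other 4 libraries. *Gm2083* was at 8.52 and 0.989 RPKM in P1, and likewise at 0 in the P2 and P0 libraries. Every member was thus highest in the P1 library of tumor 1, near 1 RPKM in that of tumor 2 and without reads elsewhere. The 2 P1 libraries therefore did not overlap with those of P2 or P0, for members chosen from these same values. Of the 12512 genes tested below, 18.7% had both P1 libraries above both P0 libraries, and 18.2% had them above both P2 libraries. The P1 means were 7.41 ± 9.21 RPKM for *Mup2*, 11.1 ± 14.2 for *Mup15* and 4.76 ± 5.33 for *Gm2083* (SD, n = 2 each), each SD larger than its mean.

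**Figure D1:**
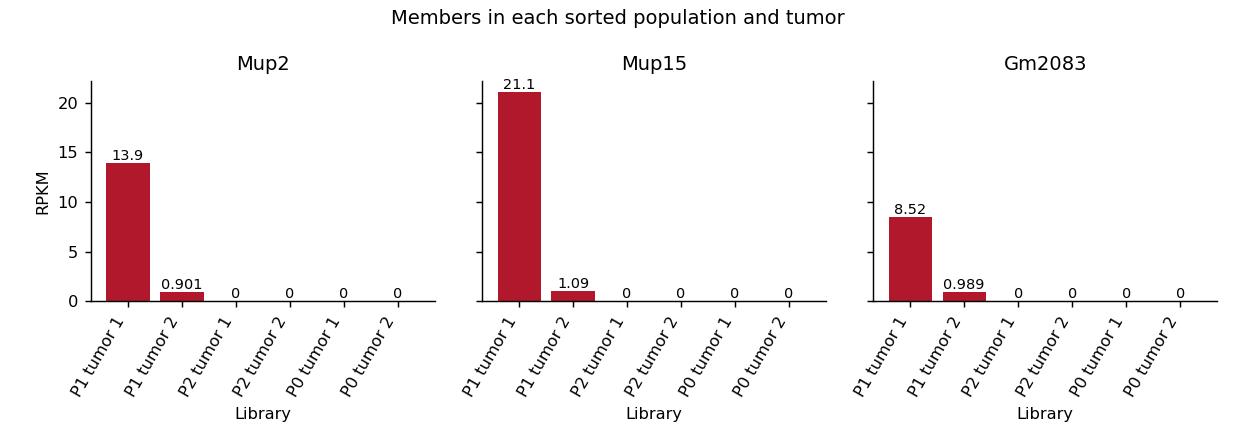
RPKM of *Mup2*, *Mup15* and *Gm2083* (vertical axis) in each of the 6 libraries, with P1 left of P2 and P0 and 1 bar per library. The P1 library of tumor 1 reaches 13.9, 21.1 and 8.52 RPKM, that of tumor 2 reaches 0.901, 1.09 and 0.989, and the other 4 are at 0.

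Whole reads could be recovered from the deposited values, and they describe the members more closely than RPKM. *Mup2* had 2166 reads in P1 of tumor 1 and 63 in P1 of tumor 2, in a library of 48008802 and of 21577459 reads. *Mup15* had 1805 and 42 reads, and *Gm2083* had 2166 and 113. The P2 libraries held 23773850 and 19037070 reads and the P0 libraries 36200687 and 19443201, with 0 reads for each member in all 4. The limit used here for a count of 0 is 3 reads in a library, a one-sided 95% limit. It is 0.126 and 0.158 RPM (reads per 1000000 counted in the library) in P2 and 0.0829 and 0.154 in P0 of tumors 1 and 2. The upper ends of the 95% exact Poisson intervals, the kind given for P1 below, were higher. They were 0.155 and 0.194 RPM in P2 and 0.102 and 0.190 in P0. Several reads can come from 1 molecule, so these limits and the intervals that follow cover counting error alone.

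Against those limits, the members were higher in P1 within each tumor, and more so in tumor 1. As they were chosen from these same values, this describes them and is no test. The folds in this paragraph are the P1 level divided by the limit of 3 reads. They leave out the counting error of P1, so they are no lower bounds, and they take each row's reads as they stand. The intervals do so too, and make no allowance for the multiples described below. For *Mup1*, a near-identical row with 361 and 21 reads in P1, the folds were lower. They were 59.6-fold against P2 and 90.7-fold against P0 in tumor 1, and 6.18-fold and 6.31-fold in tumor 2. *Mup2* was at 45.1 RPM in P1 of tumor 1 (95% exact Poisson interval 43.2 to 47.1), 358-fold the P2 limit and 544-fold the P0 limit of that tumor. In tumor 2 it was at 2.92 RPM (2.24 to 3.74), 18.5-fold the P2 limit and 18.9-fold the P0 limit. For *Mup15* the folds were 298-fold and 454-fold in tumor 1, and 12.4-fold and 12.6-fold in tumor 2, against P2 and P0 in that order. For *Gm2083* they were 358-fold and 544-fold in tumor 1, and 33.2-fold and 33.9-fold in tumor 2. Both tumors thus gave the same direction, but the size in P1 differed between them by 15.5-fold for *Mup2*, 19.3-fold for *Mup15* and 8.62-fold for *Gm2083*. In bulk RNA of a sorted population, fewer cells that make a transcript and less transcript per cell cannot be told apart.

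The read numbers of the 3 members were not independent of each other. The table held 17 rows of the family, the 3 members and 14 others, and in P1 of tumor 1 the reads of 15 rows were whole multiples of 361. *Mup2* and *Gm2083* were at 6 times this number and *Mup15* at 5 times. *Mup7* and *Mup14* were at 2 times, with 722 reads each, and 10 further rows (*Mup1*, *Mup8*, *Mup9*, *Mup10*, *Mup11*, *Mup12*, *Mup16*, *Mup17*, *Mup19* and *LOC100048884*) had exactly 361 reads. A similar pattern was present in P1 of tumor 2, where 8 rows had 21 reads, *Mup15* had 42 and *Mup2* had 63. There *Mup10* had 13 reads and *Mup8*, *Mup14* and *Mup17* had 8 each, while the 113 reads of *Gm2083* were no whole multiple of 21. None of these 15 rows had a read in P2 or P0.

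**Figure D2:**
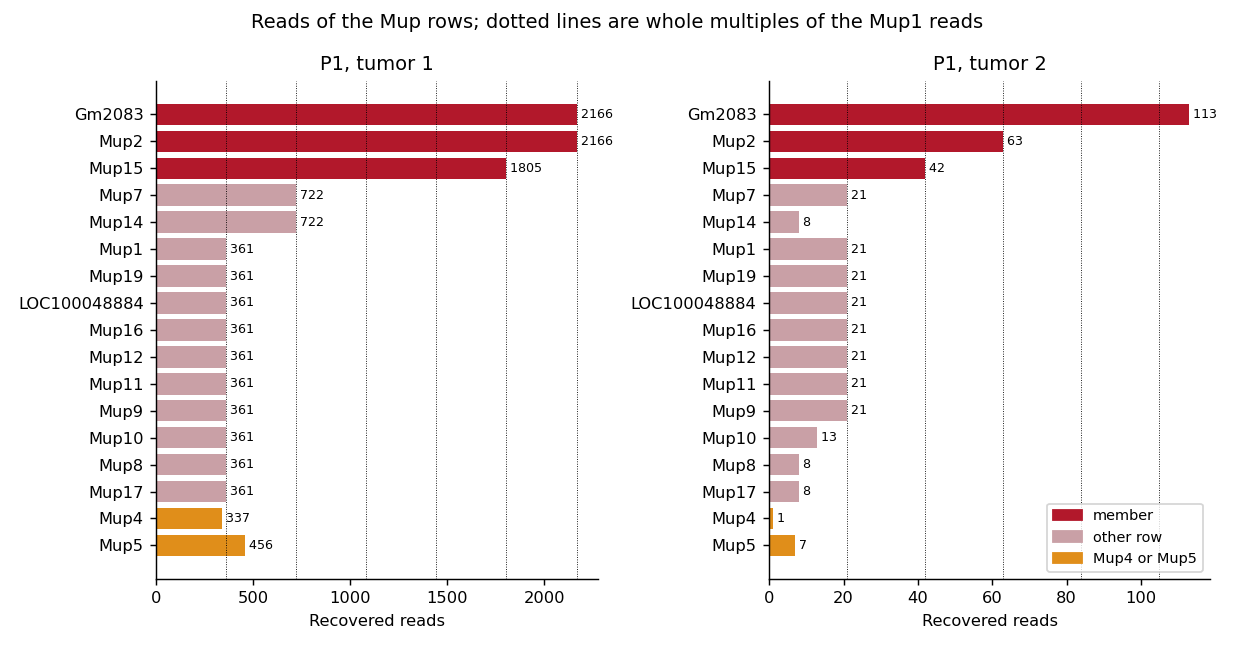
Recovered reads (horizontal axis) of the 17 family rows in P1 of tumor 1 (left) and P1 of tumor 2 (right), with members in red, *Mup4* and *Mup5* in orange and dotted lines at whole multiples of the *Mup1* reads. In tumor 1, 15 bars end on a line at a multiple of 361 reads, and in tumor 2, 8 bars end at 21 reads.

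The order of the members by RPKM follows from these multiples and from the row lengths. The lengths behind the RPKM were 3240 bp for *Mup2*, 1778 bp for *Mup15* and 5291 bp for *Gm2083*, whereas the 10 rows with 361 reads were 878 to 1181 bp long and lay at 6.37 to 8.56 RPKM in P1 of tumor 1. *Mup15* was above *Mup2* in RPKM but below it in reads, since its row is shorter. Of the reads counted for the 3 members in P1 of tumor 1, *Mup2* and *Gm2083* held 35.3% each and *Mup15* 29.4%. In P1 of tumor 2 the shares were 28.9% for *Mup2*, 19.3% for *Mup15* and 51.8% for *Gm2083*. No interval is given for the shares, since the read numbers of the members were not independent of each other. No order among the members, and no ranking of single copies, can be read from such counts.

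The reads of a single row such as *Mup1*, 361 and 21, can be taken once in place of the multiples. In P1 of tumor 1 this level was 7.52 RPM (6.76 to 8.34) and in P1 of tumor 2 it was 0.973 (0.602 to 1.49), a difference of 7.73-fold between the tumors. Taken by this number, too, P1 was above the limits of P2 and P0 in both tumors, at 21 reads in tumor 2. The reads of *Mup2* and *Mup15* were whole multiples of these numbers, so this adds no separate support. Whether the same reads were counted in several rows was not tested, since how reads that match several genes were counted is not given in the sources used here.

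Among the rows with a reference gene, those that shared the common number were the ones with nearly the same coding sequence. The member *Gm2083* shared the number too but had no reference sequence to compare. Of the 17 rows, 16 matched a reference gene, and the 13 apart from *Mup2*, *Mup4* and *Mup5* were 98.7% to 99.6% identical to *Mup2* over the coding sequence, with 1 to 7 mismatched bases. Every 50-base coding stretch of *Mup2* and of *Mup15* also occurred in the transcripts of another *Mup* gene, and of the 100-base stretches 97.1% did. Across these 13 close copies, the share was 89.8% to 100% at 50 bases and 71.7% to 100% at 100 bases. The lengths were set for this description, because the read length was not given in the sources used here.

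**Figure D3:**
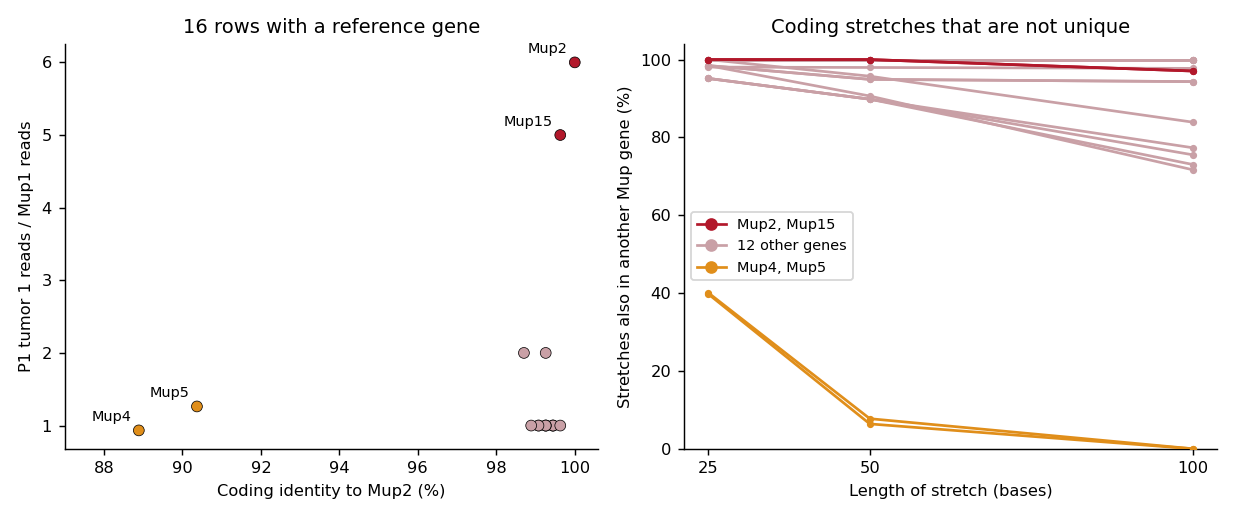
Left, reads in P1 of tumor 1 divided by the *Mup1* reads (vertical axis) against coding identity to *Mup2* in percent (horizontal axis), 1 point per row with a reference gene. Right, percent of coding stretches of 25, 50 and 100 bases that also occur in another *Mup* gene, 1 line per gene, where *Mup4* and *Mup5* reach 0% at 100 bases and *Mup2* and *Mup15* stay at 97.1%.

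*Mup4* and *Mup5*, the most divergent copies with a row, behaved differently from the members. *Mup4* was 88.9% and *Mup5* 90.4% identical to *Mup2*, and none of their 100-base coding stretches occurred in another *Mup* gene. *Mup4*, which is known from nasal and lacrimal glands, had 337 and 1 reads in P1 of tumors 1 and 2, 1 and 0 reads in P2 and 0 and 15 reads in P0. *Mup5* had 456 and 7 reads in P1, 0 and 38 reads in P2 and 0 and 45 reads in P0. Both were thus high in P1 of tumor 1 and had their P0 reads in tumor 2, where P0 held more of their reads than P1 did, unlike for the members. In tumor 2, *Mup5* was at 0.324 RPM in P1 (0.13 to 0.668), against 2.00 in P2 (1.41 to 2.74) and 2.31 in P0 (1.69 to 3.10), and the P1 interval lay below both others. P1 of tumor 1 was therefore the single library in which all 17 rows had at least 337 reads.

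On the scale used across all genes, log2(RPKM + 1), the members' mean differences were moderate and uneven between tumors. P1 minus P0 was 2.41 for *Mup2* (3.90 in tumor 1 and 0.93 in tumor 2), 2.77 for *Mup15* (4.47 and 1.07) and 2.12 for *Gm2083* (3.25 and 0.99). P1 minus P2 gave the same values, since P2 and P0 were both at 0 and the comparisons share the P1 libraries, and P2 minus P0 was 0. The added 1 RPKM understates the difference of genes as low as these. Both P1 libraries lay above both P0 libraries for 18.7% of the 12512 genes tested and above both P2 libraries for 18.2%, while both P2 libraries lay above both P0 libraries for 14.2%, so this property alone is common. Of the members, *Mup15* alone reached the filter of at least 1 RPKM in at least 2 libraries, with *Mup2* at 0.901 and *Gm2083* at 0.989 RPKM in P1 of tumor 2.

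Absence from all 4 other libraries was rarer. Among the 14888 genes, 64 (0.43%) had reads in both P1 libraries and in no other, and 15 of the 64 were rows of this family. The table held no row with reads in a single library, so a gene with reads in 1 P1 library alone could not be seen. Of the 49 other genes, *Rhox4a*, a homeobox gene of the X-linked reproductive cluster, had the most reads in P1 of tumor 1, 392, with 76 in P1 of tumor 2. *Fabp4*, the fatty acid carrier of adipocytes and capillary endothelium, had 332 and 11 reads. *Tert*, the catalytic subunit of telomerase, had 221 and 42 reads, and *Aldh3a1*, an aldehyde dehydrogenase best known from cornea, had 226 and 15. The members had 1805 reads or more in P1 of tumor 1, but the number 361 that 10 rows of the family share was below the 392 of *Rhox4a*. The rows *Rhox4c* and *Rhox4e* had 196 reads each in that library, so the 392 may be a multiple of a shared number too. The number 361 was above that 196 and above the 332 of *Fabp4*. By RPKM in that library, *Gm2083* at 8.52 was below *Fabp4* at 10.8 and *Snora43*, a small nucleolar RNA, at 8.99. For comparison, 11 rows had reads in both P0 libraries and in no other. The table was made for P1 against P0 and held 1 row with a value in P2 alone, whose reads could not be recovered, so no such count is given for P2.

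**Figure D4:**
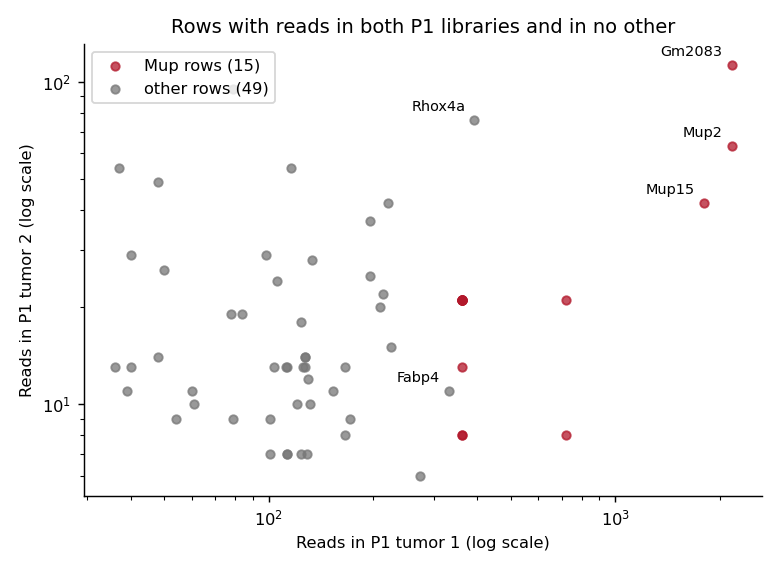
Reads in P1 of tumor 2 (vertical log axis) against reads in P1 of tumor 1 (horizontal log axis) for the 64 rows with reads in both P1 libraries and none elsewhere, with 15 family rows in red and 49 others in grey. The members lie at the right edge with 1805 to 2166 reads in tumor 1, where *Rhox4a* has 392, while 10 family rows have 361.

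The P1 library of tumor 1 also held other genes that were absent from its partners. In tumor 1, 157 genes (1.05%) had no reads in P2 and P0 and at least 361 in P1, and 16 of the 157 were rows of this family. That library was the deepest, and the tumor 1 libraries were the ones with many empty rows. Genes without reads numbered 1945 in P1, 3900 in P2 and 3287 in P0 of tumor 1, against 358, 758 and 445 in tumor 2. In tumor 2, with fewer empty rows, the members were again absent from P2 and P0 and present in P1 at 42 to 113 reads.

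Genes with a pattern like that of the members were ranked among the 9097 that reached 1 RPKM in 2 or more libraries and had a range of at least 1 on the log2(RPKM + 1) scale. Among these, over the 6 libraries, the highest Pearson correlations with the summed members belonged to *LOC100048884*, *Mup12*, *Mup16*, *Mup19* and *Mup9* at 0.9994, *Mup11* at 0.9993, *Rhox4c* at 0.9934 and *6330418K02Rik* at 0.9911. *LOC100048884* carries the identifier of *Mup18*. *Rhox4c*, another homeobox gene of the reproductive cluster, was at 4.52 and 1.28 RPKM in P1, and *6330418K02Rik* at 3.48 and 1.13, both at 0 in P2 and P0. With 4 of the 6 points at 0, these values describe a shared pattern of presence and carry no test, and the 6 family rows had the read numbers described above. Outside the 9097, 7 lower genes, none of them of this family, had a correlation above that of every ranked gene, so the ranking depends on the filter.

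Of the other lipocalins and small carriers of hydrophobic ligands, *Fabp4* alone had reads in both P1 libraries and in no other. Of 22 genes on this list 11 had a row and 7 were tested, and with limma 0 passed an adjusted p of 0.05 in P1 against P0, P2 against P0 or P1 against P2, where 0% of all tested genes passed. *Lcn2*, the neutrophil gelatinase-associated lipocalin, was the most abundant at 10957 and 10275 RPKM in P1, 12043 and 8382 in P2 and 17424 and 7113 in P0. Its 3 populations overlapped, and its tumors differed most in P0. The list's median log2 fold change was 0.37 in P1 against P0, 0.35 in P2 against P0 and 0.15 in P1 against P2, beside 0.12, 0.00 and 0.11 over all tested genes.

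The genes through which hormones control *Mup* transcription in liver were mostly present in the tumor cells, and none differed between populations past the threshold. Of 24 such genes 21 had a row and 18 were tested, and with limma none had an unadjusted p under 0.05 in any of the 3 comparisons. Over all tested genes, such a p was found for 1.57% higher and 0.328% lower in P1 against P0, 2.78% and 1.13% in P2 against P0, and 1.45% and 1.05% in P1 against P2. *Cebpb*, a transcription factor of the acute phase and of mammary epithelium, was the most abundant at 129.0 and 111.0 RPKM in P1, 116.7 and 167.1 in P2 and 93.7 and 78.7 in P0. *Stat5b*, which carries the growth hormone signal in liver, was at 7.19 and 5.11 RPKM in P1, 8.56 and 5.67 in P2 and 5.54 and 6.41 in P0, and its populations overlapped. The list's median log2 fold change was 0.41 in P1 against P0, with 15 of 18 genes positive beside 59.7% of all tested genes, 0.07 in P2 against P0 and 0.13 in P1 against P2.

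No gene passed the adjusted threshold anywhere in the table, so the lists are set against unadjusted counts. With limma and an adjusted p under 0.05, 0 of 12512 genes were called in each of the 3 comparisons, and at an unadjusted p under 0.05 there were 237 in P1 against P0, 489 in P2 against P0 and 312 in P1 against P2. The voom procedure of limma on the recovered reads called 9, 1 and 7 genes in the same order. With the tumor as a block the calls were 0, 3 and 0, and without P2 of tumor 2 they were 0, 37 and 33.

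Milk protein genes, the secretory program of the mammary gland, had a lower median in P1 than in P2 and P0, although none passed the adjusted threshold. Of 15 genes 14 had a row and 13 were tested. In P1 against P2, 13 of 13 had a negative log2 fold change with a median of -1.37, beside 41.1% negative over all tested genes, and 5 of them, *Csn1s1*, *Csn2*, *Lalba*, *Ltf* and *Muc15*, had an unadjusted limma p under 0.05. In P1 against P0 the median was -0.66, with *Ltf*, the iron-binding lactoferrin, at -1.64 ± 0.48 (SE, adjusted p = 1 with limma). In P2 against P0 all 13 were positive with a median of 0.76, beside 49.9% positive over all tested genes.

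Marker genes of other tissues in which *Mup* genes are active were looked at beside the members, and their part in the result was not tested. Of 18 hepatocyte markers 6 had a row, summing to 169 and 122 RPKM in P1, 50.3 and 89.7 in P2 and 40.4 and 71.9 in P0. *Alb*, *Ttr*, *Ahsg*, *Fga*, *Fgb*, *Tf* and *Apoh* were among the markers without a row. In P1 most of this was *Fgg*, the fibrinogen gamma chain, which was at 135.3 and 69.9 RPKM in P1, 13.5 and 53.3 in P2 and 0.0544 and 45.0 in P0, and *Hp*, the acute phase protein haptoglobin, at 23.4 and 31.9 RPKM in P1, 10.0 and 13.8 in P2 and 14.5 and 8.37 in P0. *Cyp2e1*, a cytochrome P450 of liver, made up most of the sum in P2 and P0 of tumor 1 and was at 9.30 and 16.5 RPKM in P1, 26.5 and 21.7 in P2 and 25.6 and 16.9 in P0, lowest in P1. *Fgg* and *Hp* were higher in P1 than in P0 with an unadjusted limma p under 0.05, beside 1.57% of all tested genes. *Hp* was so against P2 as well, while *Cyp2e1*, the other tested marker, had no such p. *Apoa1*, an apolipoprotein that defines liver and intestine, was at 0 and 2.34 RPKM in P1, at 0 in both P2 libraries and at 0 and 0.572 in P0. *Apoa2* was likewise at 0 in P1 of tumor 1, a library with 1945 genes without reads. *Serpina1a*, a hepatocyte protease inhibitor, was at 0.451 and 1.55 RPKM in P1, 0.282 and 0.271 in P2 and 0.242 and 0.875 in P0.

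The salivary and lacrimal or skin gland markers were mixed, and their summed levels in P1 overlapped with those in P0. Of 21 salivary markers 10 had a row, with sums of 194 and 163 RPKM in P1, 94.9 and 147 in P2 and 243 and 89.6 in P0, and 5 of the 10, *Dcpp1* and *Pip* among them, were at 0 in P1 of tumor 1. *Prol1*, which encodes a secreted salivary protein, was at 7.07 and 3.02 RPKM in P1, 0 and 0.36 in P2 and 0 and 3.04 in P0, with an unadjusted limma p under 0.05 in P1 against P2. *Aqp5*, a water channel of secretory epithelium, was at 63.8 and 61.6 RPKM in P1, 32.2 and 84.4 in P2 and 33.0 and 22.7 in P0, with an unadjusted limma p under 0.05 in P1 against P0. Of 13 lacrimal and skin gland markers 5 had a row, with sums of 401 and 154 RPKM in P1, 147 and 197 in P2 and 347 and 241 in P0, mostly *Scd1*, a fatty acid desaturase that many cells use. *Scgb2b2*, a secretoglobin, was at 13.7 and 3.89 RPKM in P1, 0.0821 and 0 in P2 and 0 and 5.32 in P0. It had an unadjusted limma p under 0.05 in P1 against P2. Of 10 adipocyte markers 3 had a row, with sums of 13.2 and 7.58 RPKM in P1, 0 and 12.1 in P2 and 2.20 and 7.20 in P0. *Fabp4*, one of these 3, was at 10.8 and 0.795 RPKM in P1 and at 0 in P2 and P0, and its levels in the P1 libraries differed by 13.6-fold.

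**Figure D5:**
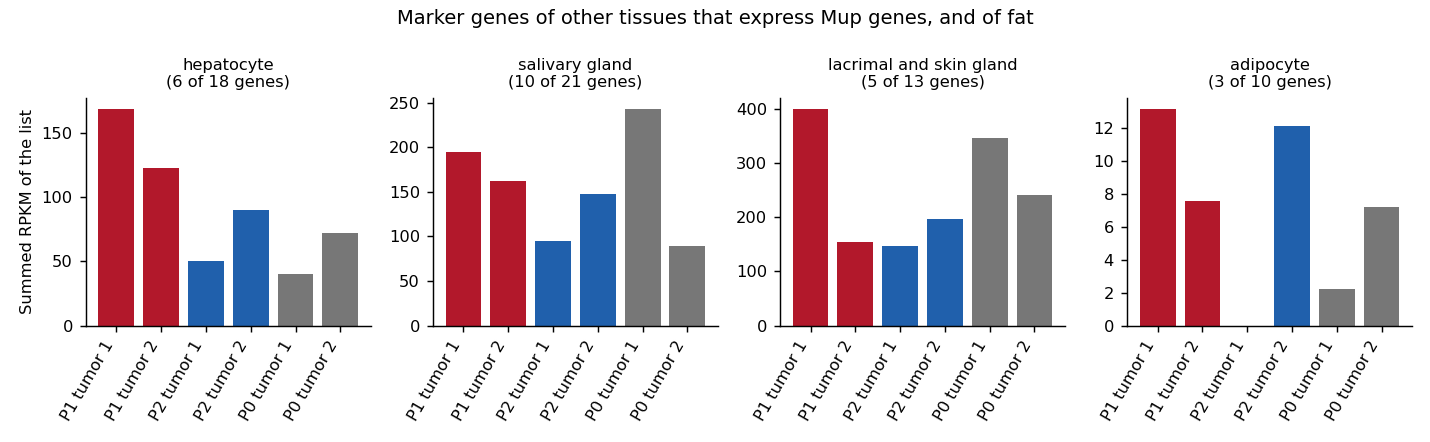
Summed RPKM (vertical axes, each from 0) of the hepatocyte, salivary gland, lacrimal and skin gland, and adipocyte marker genes in the 6 libraries, with P1 left of P2 and P0. The hepatocyte sum is highest in P1, at 169 and 122 RPKM, and the salivary sum is highest in P0 of tumor 1, at 243 RPKM.

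The sorted populations were checked against genes that define them. The basal list, which marks myoepithelial cells, summed to 914 and 979 RPKM in P1, 671 and 450 in P2 and 306 and 351 in P0. Of its 8 tested genes 4, *Krt5*, *Krt14*, *Krt17* and *Acta2*, had an unadjusted limma p under 0.05 and higher levels in P1 than in P0. Over all tested genes this held for 1.57%, and none of the 4 passed the adjusted threshold. *Aldh1a3*, an aldehyde dehydrogenase read by the ALDH assay, was at 60.5 and 40.6 RPKM in P1, 693 and 182 in P2 and 146 and 51.6 in P0. The genes for the sorted surface proteins did not separate P1. *Itgb1*, which encodes CD29, was at 258 and 217 RPKM in P1, 221 and 176 in P2 and 182 and 251 in P0, and *Itgb3*, which encodes CD61, was at 13.2 and 13.9 RPKM in P1, 15.8 and 9.42 in P2 and 17.6 and 9.29 in P0. The luminal keratin *Krt8* was at 3062 and 3050 RPKM in P1, 5193 and 3201 in P2 and 3548 and 3809 in P0, and the luminal list as a whole summed to 12763 and 10945 RPKM in P1, 22206 and 13183 in P2 and 17914 and 14308 in P0. Fibroblast markers summed to 8.10 and 88.3 RPKM in P1, 70.4 and 423 in P2 and 1.68 and 6.53 in P0. Macrophage markers summed to 6.12 and 31.7 RPKM in P1, 16.9 and 20.0 in P2 and 3.19 and 18.9 in P0, and no library was above 2.40 RPKM for the endothelial, lymphocyte or erythroid lists. The part of these cells in the members' values was not tested.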

How the data were processed

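RNA was sequenced from P1, P2 and P0 cells of the same 2 tumors. The authors isolated poly(A) RNA, used the PrepX mRNA kit, and aligned HiSeq reads with the standard Illumina pipeline; the aligner, genome build and annotation, and the treatment of reads that match several genes, are not given in the sources used here. The authors deposited RPKM for the 6 libraries and, for P1 and P0, group means that are a normalized signal. The deposited fold change, log2, p-value and adjusted p-value columns hold the authors' comparison and were not used.

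The group means and RPKM gave whole reads (tolerance 0.01) for 14896 of 14897 rows; 8 rows have no symbol. Reads were not independent molecules, and totals ran between 19037070 and 48008802. The test was limma 3.58.1 (R 4.3.3, trend) on log2(RPKM + 1) of the 12512 genes that reached 1 RPKM in 2 or more libraries, with Benjamini-Hochberg adjustment at 0.05, tested on simulated data. The tumor number pairs the libraries, per the labels; deviations of P1 and P0 correlated at 0.185, P2 and P0 at 0.211 and P1 and P2 at 0.242. Named genes are the members, rows named *Mup* with a number, the 8 genes most correlated with the summed members, and list genes with an unadjusted p under 0.05 or the highest level; further genes were named after their values were seen. A list gene that the rule would name is not reported here. Members and lists were chosen with earlier results of these data known. Alignments of coding sequences used Biopython 1.88 (global) and GENCODE M21; *Mup* genes were taken by identifier, with the coding transcript nearest in length to *Mup2*. Python 3.11.15 was used for the rest. Alternatives were the pseudocount, no filter, median ratio scaling, voom on recovered reads, the block and leaving out each library.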

Additional observations from a re-analysis of the deposited data

How the results depend on the processing

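With no reads in P2 and P0, no alternative could turn the members' direction, so only the sizes are informative. With a pseudocount of 0.1, the log2 fold change in P1 against P0 and in P1 against P2 was 5.23 for *Mup2*, 5.65 for *Mup15* and 4.94 for *Gm2083*. With limma voom on recovered reads it was 9.26, 8.84 and 9.68 against P0, 8.94, 8.52 and 9.36 against P2, and 0.32 for each member in P2 against P0, where no library had a read, so that value comes from the prior count and the depths alone. Median ratio scaling gave 2.36, 2.71 and 2.07, and the fit without a filter and the replicate block gave the values of the report. Leaving out each library moved *Mup2* between 0.93 and 3.90, *Mup15* between 1.07 and 4.47 and *Gm2083* between 0.99 and 3.25, the lowest without P1 of tumor 1 and the highest without P1 of tumor 2.

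Genes called at an adjusted p of 0.05 were 9 in P1 against P0, 1 in P2 against P0 and 7 in P1 against P2 with voom, 2 in P2 against P0 with a pseudocount of 0.1, and 3 in P2 against P0 with the tumor as a replicate block; other fits with all 6 libraries called 0. Leaving out each library gave 0 in P1 against P0, between 0 and 37 in P2 against P0 and between 0 and 33 in P1 against P2, the highest without P2 of tumor 2. In P2 against P0, 2 genes were called when P1 of tumor 1 was left out, and 1 when either P0 or P1 of tumor 2 was. Where 1 library of a population was left, that library was assumed to vary like the others. As a share of summed RPKM in place of reads, *Mup15* held 48.5% in P1 of tumor 1 and 36.7% in P1 of tumor 2. In P1 of tumor 2 the members had 63 (*Mup2*), 42 (*Mup15*) and 113 reads (*Gm2083*). The level taken from a single row such as *Mup1* rests on 21 reads there. The same number stood in 8 rows, which are not separate supports.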
